A study of Mus musculus with 12 samples.

Results

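The aminoacyl-tRNA synthetases are the enzymes that join each amino acid to its transfer RNA. They were taken as the protein-coding genes in the deposited table whose symbol is 1 capital letter followed by ars, with or without a final digit, together with Eprs, Farsa and Farsb. This gave 34 of the 12584 genes in the table: 18 cytosolic enzymes by name and 16 mitochondrial ones, whose symbols end in 2. The cytosolic cysteine and tryptophan enzymes were not analysed here. RNA was sequenced from CT26 cells, an established mouse colon tumour line, in 12 libraries, 3 for each of 4 treatments of 24 h: NP-D@MP, NP-D@M, NP@M and, as the control, PBS. No genotype or strain separates the groups, which share the cell line and the time. The series title names a nanodrug with an engineered cancer cell membrane that targets CDKs. The extraction protocol mentions retinas, which conflicts with the labelled line. The labels do not spell out NP, D, M or P, and no separate cultures are named, so the p-values cover the spread among these libraries alone, and that spread may be technical.

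As background, a synthetase activates its amino acid with ATP and transfers it to the matching transfer RNA, which an elongation factor then carries to the ribosome. Cytosolic and mitochondrial protein synthesis mostly use separate nuclear genes for this step, while the glycine and lysine genes (Gars, Kars) each serve both compartments, and several cytosolic enzymes sit together in the multisynthetase complex. Uncharged transfer RNA activates the kinase GCN2, and the transcription factor ATF4, made when eIF2 alpha is phosphorylated, is known to induce many cytosolic synthetase genes through C/EBP-ATF response elements.

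Because ATF4 is a known regulator of many of these genes, the promoters were searched for TGATGNAA, the form of that element used here, on both strands (TTNCATCA on the other). RefSeq promoters, each from 250 bases before to 50 bases after a gene's start in GRCm38.p6, were matched by symbol to 25 of the 34 synthetases. Hars, Hars2, Lars, Mars, Nars, Pars2, Rars and Vars were among those with no match. The motif was in 5 of the 25 (20.0%), all of them cytosolic: Aars, with 2 copies, Gars, Iars, Tars and Yars. It was in 0 of the 13 matched mitochondrial promoters, and in 4.51% of the 27025 genes with a promoter. These sequences are shown because their genes hold 3 of the 5 cytosolic synthetases that were lower with D, including the one that fell most. Of the rest of those 5, Eprs had a matched promoter without the motif and Rars had no matched promoter. The display was chosen from these same values, so this count is a description and no support for a link. They are written 5′ to 3′ along the gene, with the motif in capitals.

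Iars, chr13:49681880-49682179, + strand: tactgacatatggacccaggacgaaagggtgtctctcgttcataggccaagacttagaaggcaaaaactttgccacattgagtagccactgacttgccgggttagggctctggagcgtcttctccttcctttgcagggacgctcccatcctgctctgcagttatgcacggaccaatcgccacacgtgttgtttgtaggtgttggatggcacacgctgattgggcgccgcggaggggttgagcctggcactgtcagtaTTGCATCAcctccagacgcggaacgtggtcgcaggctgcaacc
Aars, chr8:111033592-111033891, + strand: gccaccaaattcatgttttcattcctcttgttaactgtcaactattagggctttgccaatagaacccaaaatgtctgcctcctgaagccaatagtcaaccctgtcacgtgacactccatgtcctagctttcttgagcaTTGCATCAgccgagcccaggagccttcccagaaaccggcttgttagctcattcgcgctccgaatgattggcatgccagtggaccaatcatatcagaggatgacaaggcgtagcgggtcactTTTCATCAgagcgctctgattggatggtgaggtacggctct
Gars, chr6:55037751-55038050, + strand: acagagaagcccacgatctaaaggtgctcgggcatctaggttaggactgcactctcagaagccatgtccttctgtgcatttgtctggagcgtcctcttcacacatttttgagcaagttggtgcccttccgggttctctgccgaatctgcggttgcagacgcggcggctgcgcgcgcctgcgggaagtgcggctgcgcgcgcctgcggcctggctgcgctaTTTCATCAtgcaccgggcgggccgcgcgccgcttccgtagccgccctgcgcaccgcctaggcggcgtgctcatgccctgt
Tars, chr15:11399609-11399908, - strand: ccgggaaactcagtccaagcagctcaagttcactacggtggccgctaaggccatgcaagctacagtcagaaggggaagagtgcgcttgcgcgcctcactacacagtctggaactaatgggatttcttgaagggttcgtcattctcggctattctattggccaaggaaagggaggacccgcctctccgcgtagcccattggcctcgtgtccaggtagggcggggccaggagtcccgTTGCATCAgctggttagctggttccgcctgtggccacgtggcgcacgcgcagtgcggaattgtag
Yars, chr4:129189653-129189952, + strand: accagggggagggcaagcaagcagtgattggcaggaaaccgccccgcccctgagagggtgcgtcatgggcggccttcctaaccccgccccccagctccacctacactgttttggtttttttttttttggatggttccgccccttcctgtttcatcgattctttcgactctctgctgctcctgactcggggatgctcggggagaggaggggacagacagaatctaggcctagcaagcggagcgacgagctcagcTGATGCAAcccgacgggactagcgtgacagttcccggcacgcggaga

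A match is a description of the letters and not a binding site. No binding was measured, and the motif's relation to the values below is given there without a test.

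The levels are FPKM, reads relative to gene length and to a library size that the authors used. Reads could be recovered from the values. They summed to 12.8 to 14.9 M per library with D in its name and 13.9 to 15.7 M without, but the size divided by was 0.533 to 0.565 times this sum with D and 1.95 to 2.02 times without. A level with D is therefore raised relative to one without D by this choice. Each direction between libraries with and without D was set beside the values rescaled to the table's reads, to a common median ratio and by quantiles, and a direction is called stable only where all 4 gave it. The mouse mitochondrial genome's own transcripts took 3.30% to 4.2% of the reads without D and 7.41% to 14.4% with D. Of 9 colon epithelium markers, Krt18 and Krt20 were in the table, summing to 15.1 to 18.7 FPKM without D and 73.0 to 91.1 with D. The higher sum was that of Krt20, whose mean was 8.67 FPKM in the NP@M group and 78.0 in the NP-D@M group. Krt18 went the other way, from 6.89 to 4.46 in these groups (limma adjusted p = 0.0800). The other 7 colon markers, and all 5 lymphoid and 2 erythroid markers listed, were not analysed here. The 6 fibroblast markers summed to 70.6 to 86.6 FPKM without D and 11.1 to 15.4 with D, with Dcn and Pdgfra under the filter, and the 3 myeloid markers in the table, Cd68, Lyz2 and Ptprc, to 2.57 to 3.25 and 9.31 to 21.3, with Ptprc at 0 in every PBS and NP@M library. Pecam1, the endothelial marker in the table, was at most 0.191 FPKM, and Sag, the retinal one, at most 0.589. The part of these markers in the results was not tested.

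Together the 34 genes took 0.768% to 0.822% of the reads without D and 0.486% to 0.524% with D, with no overlap. Cytosolic genes took 0.681% to 0.722% without D and 0.369% to 0.388% with D. Mitochondrial genes took 0.0646% to 0.102% without D and 0.114% to 0.143% with D. These shares do not depend on the library size divided by. Without Lars2, the mitochondrial leucine enzyme, mitochondrial genes took 0.0469% to 0.0518% without D and 0.0299% to 0.0316% with D, so the higher mitochondrial share with D was that of Lars2. Summed FPKM of the cytosolic genes over that of the mitochondrial ones was 12.1 to 16.4 without D and 6.57 to 8.19 with D. This order also rests on Lars2: without it the ratio was 17.7 to 19.4 without D and 21.2 to 23.2 with D, the opposite order. Leaving Lars2 out was chosen after seeing the data.

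The makeup of the set differed between libraries with and without D. Gars made up 14.4% ± 0.282 (SD, n = 3) of summed synthetase FPKM in the PBS group and 15.1% ± 0.410 in the NP@M group, against 5.50% ± 0.811 in the NP-D@M and 4.97% ± 0.0176 in the NP-D@MP group. It ranked 1 to 2 of the 34 in PBS libraries and 7 to 9 in NP-D@M libraries. Hars, the cytosolic histidine enzyme, went the other way, from 4.14% ± 0.480 and 3.50% ± 0.177 to 13.4% ± 1.19 and 15% ± 0.0938. Kars rose from 3.32% ± 0.277 and 3.51% ± 0.0689 to 11.8% ± 1.06 and 11.3% ± 0.548. Iars, the cytosolic isoleucine enzyme, dropped from 4.51% ± 0.333 and 4.56% ± 0.0549 to 0.231% ± 0.0222 and 0.233% ± 0.0334, and from rank 6 to 9 with PBS to rank 23 to 24 with NP-D@MP. Nars, the asparagine enzyme, stayed among the highest, at 15.3% ± 0.842, 16.0% ± 0.971, 13.3% ± 0.779 and 12.5% ± 0.474 in the same order.

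**Figure D1:**
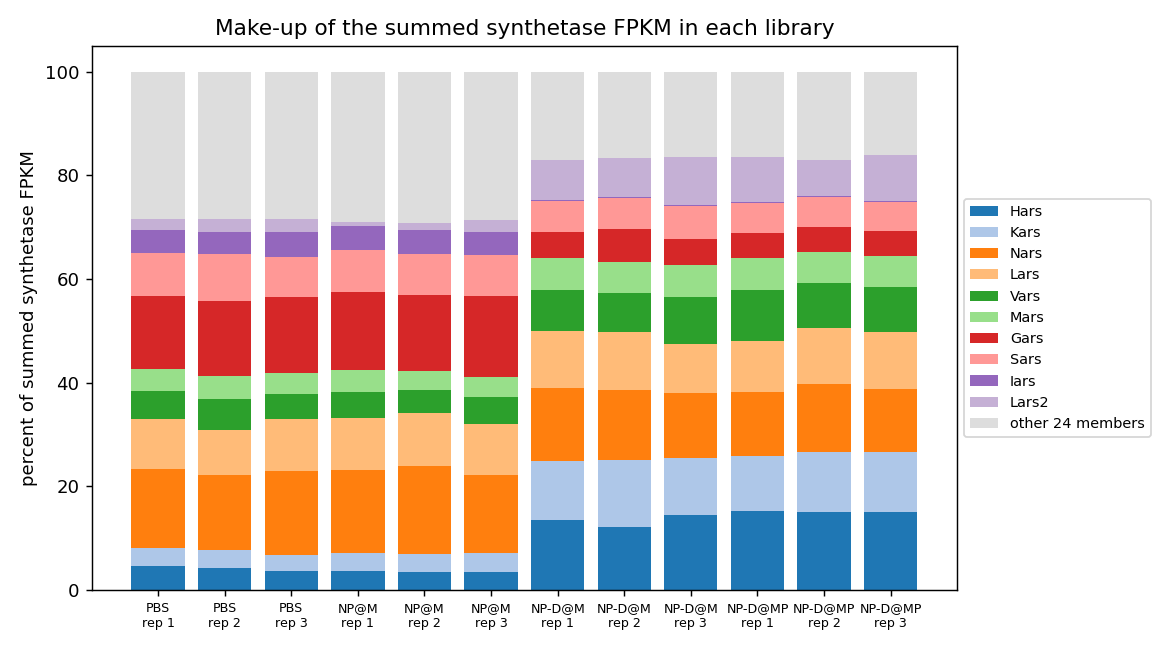
Share of summed synthetase FPKM (percent) held by named synthetases in each library, grouped by treatment. Hars and Kars take a larger share in all 6 libraries with D, and Gars and Iars a smaller one.

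Levels differed more between the compartments than between treatments without D. The median cytosolic gene was at 32.0 to 37.8 FPKM in libraries without D and at 50.3 to 58.5 with D, and the median mitochondrial gene at 2.54 to 3.06 and 1.56 to 2.15. All 18 cytosolic genes passed the filter (3 or more libraries at 1 FPKM or above), and each was at or above 1 FPKM in all 12. Of the 16 mitochondrial genes 14 passed and 7 were at 1 FPKM in every library. Ears2 and Yars2 passed only through the libraries without D, with 0 libraries at 1 FPKM with D and 4 and 6 without, so that this filter favoured a lower value with D. Mars2 passed only through the libraries with D, 5 against 2 without, so that it favoured a higher one. Nars2 and Pars2, for asparagine and proline, did not pass. Pars2 had 66, 70 and 32 reads in the PBS libraries, 95, 59 and 46 in the NP@M, 0 in each NP-D@M library and 0, 0 and 3 with NP-D@MP. Against a floor of 3 reads per library it was at least 5.78-fold lower with NP-D@M than with NP@M, in the deposited scaling and for counting error only. Nars2 had 149, 219 and 158 reads in the NP@M libraries, against 25, 20 and 18 in those of NP-D@M.

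**Figure D2:**
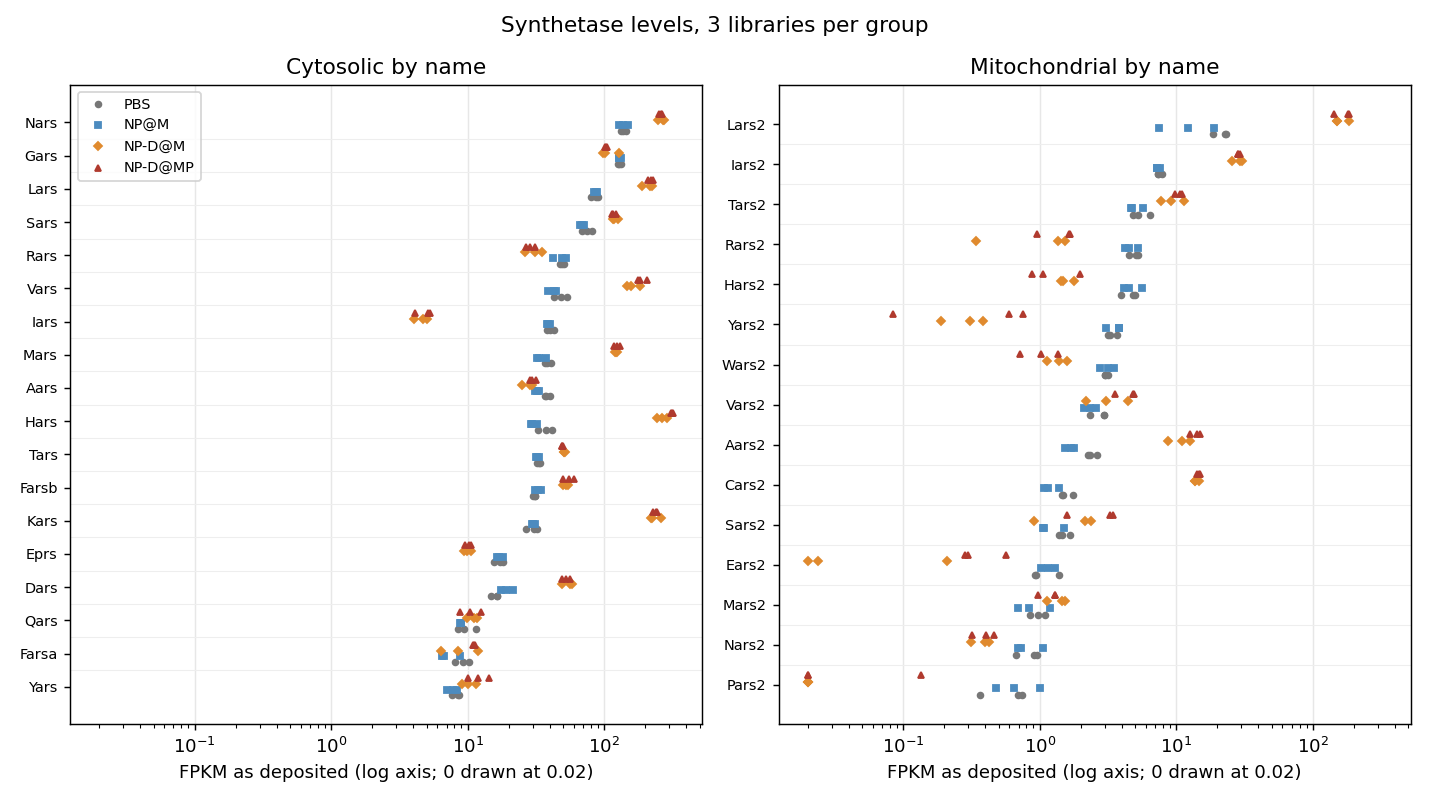
FPKM of 33 synthetases in the 12 libraries on a log axis, coloured by treatment, with cytosolic and mitochondrial genes apart. The cytosolic genes lie above most mitochondrial ones, and the libraries with and without D of Iars, Hars and Kars lie far apart.

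The first comparison, NP@M against PBS, sets the formulation without D or P in its name against PBS. No synthetase was called at an adjusted p under 0.05 by limma (0 of 32, with 0.0099% of all 10101 tested genes called). At an unadjusted p under 0.05 it was 6 of 32, against 10.8% of all genes. Limma voom on the recovered reads also called 0 of 32, against 0.693% of all genes. The groups did not overlap for 6 of 32, against 28.4% of all genes, among them Aars, Dars, Hars, Aars2 and Cars2. The largest difference was that of Lars2, at 18.7, 23.2 and 22.6 FPKM in the PBS libraries, 7.51, 12.2 and 18.8 in the NP@M, 151, 150.0 and 184 in the NP-D@M and 182, 142 and 184 in the NP-D@MP libraries. The highest NP@M library was above the lowest PBS library, so the groups overlapped, and the log2 difference was -0.78 with a standard error of 0.25 (limma adjusted p = 0.448). Hars was -0.29 on the same scale (standard error 0.10, limma adjusted p = 0.448). A p that misses the threshold does not show that the levels were alike.

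NP-D@M against NP@M compares formulations that differ by D in the name, and NP-D@MP against PBS sets the formulation with both D and P against PBS. The 2 comparisons share no library. Here 28 of 32 synthetases were called in NP-D@M against NP@M, 17 higher and 11 lower, where 89.5% of all tested genes were called, 41.8% higher and 47.7% lower. For NP-D@MP against PBS it was 29 of 32, 18 higher and 11 lower, where 90.5% of all genes were called, 43.2% higher and 47.3% lower. The share of synthetases called was thus near that of all genes. Of the 32, 27 were called in both in the same direction, against 85.5% of all genes. Rescaled to the table's reads, and by limma voom on the recovered reads, the split was 5 higher and 24 lower in both comparisons, against 17.6% higher and 70.7% lower of all genes in the first and 17.6% and 70.9% in the second with limma, and 17.1% and 70.5%, then 17.1% and 70.6%, with voom. The split of the synthetases thus turned with the scaling, as did that of all genes. Groups did not overlap for 27 and 29 of 32, against 87.3% and 93.0% of all genes.

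In all, 6 synthetases were higher in every scaling, and 11 were lower in every scaling in NP-D@M against NP@M. The higher ones were Hars, Kars, Aars2, Cars2, Iars2 and Lars2, and the lower ones included Aars, Eprs, Gars, Iars, Rars, Ears2, Hars2, Rars2, Wars2 and Yars2. Of these, Ears2 and Yars2 had to be lower to pass the filter as they did. Among all tested genes 21.6% were called and higher in all 4 scalings, and 44.1% lower. In NP-D@MP against PBS the genes named here kept their directions. The shares of all genes were 22.1% and 43.9%. The other 11 genes called in NP-D@M against NP@M, Nars, Lars, Dars, Mars, Vars, Sars, Tars, Farsb, Yars, Tars2 and Mars2, were higher as deposited. Rescaled to the table's reads they turned lower, except Vars and Mars, which were not called there, at 0.11 and -0.0050. At a common median ratio all 11 stayed higher and called. After quantile normalization Farsb, Lars, Mars, Nars, Sars, Tars and Vars stood below 0, and the rest stayed above it. Their direction thus depended on the scaling.

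Among the cytosolic genes Iars fell most. The gene lies at chr13:49682100-49734267, + strand (GRCm38, as in the table). It stood at 40.4, 38.1 and 43.0 FPKM in the PBS libraries, 39.0, 40.3 and 38.4 in the NP@M, 4.07, 5.02 and 4.71 in the NP-D@M and 4.13, 5.25 and 5.13 in the NP-D@MP libraries. The highest library with D was below the lowest without it, and the mean was 8.53-fold lower with NP-D@M than with NP@M. The log2 change was -2.85 (standard error 0.10, limma adjusted p = 3.27e-10) and -4.14 rescaled to the table's reads. Its counterpart in NP-D@MP against PBS was -2.83 (limma adjusted p = 3.35e-10).

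Eprs and Rars fell less, and Aars and Gars least. Eprs, which joins glutamate and proline in 1 protein, was at 17.2, 15.6 and 18.2 FPKM in the PBS libraries, 17, 18.2 and 16.4 in the NP@M, 9.32, 10.6 and 9.81 in the NP-D@M and 10.3, 10.6 and 9.59 in the NP-D@MP libraries. Rars, the arginine enzyme, was at 49.1, 47.2 and 50.3 FPKM in the PBS libraries, 48.9, 52.8 and 42.1 in the NP@M, 30.9, 35.0 and 26.5 in the NP-D@M and 31.3, 28.8 and 26.8 in the NP-D@MP libraries. Both were lower in every library with D than in any without. Groups separated for 87.3% of all genes in NP-D@M against NP@M and for 93.0% in NP-D@MP against PBS. Their log2 changes in NP-D@M against NP@M were -0.74 and -0.62 (limma adjusted p = 1.01e-05 and 0.000389). Aars, the alanine enzyme, and Gars were close to the threshold, at -0.21 and -0.25 (limma adjusted p = 0.0460 and 0.0343). Aars was at 37.4, 39.9 and 37.1 FPKM in the PBS libraries, 33.3, 32.1 and 30.9 in the NP@M, 29.7, 24.8 and 28.7 in the NP-D@M and 31.4, 28.6 and 29.4 in the NP-D@MP libraries, and shares 14.3% of its exon bases with Exosc6 on the same strand. Gars was at 126, 133 and 129 FPKM in the PBS libraries, 129, 129 and 132 in the NP@M, 98.0, 129 and 101 in the NP-D@M and 105, 102 and 103 in the NP-D@MP libraries, and its NP@M and NP-D@M libraries overlapped. The call for Gars was lost on leaving out any NP@M library or NP-D@M library 1 or 3, with values from -0.26 to -0.18, and that for Aars without any NP@M library or NP-D@M library 2, with values from -0.24 to -0.13, but rescaled to the table's reads they stood at -2.06 and -1.92.

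Among the cytosolic genes Hars (chr18:36766530-36783205) and Kars (chr8:111993443-112011323) rose most. Hars stood at 41.5, 37.5 and 32.5 FPKM in the PBS libraries, 31.9, 29.4 and 29.2 in the NP@M, 266, 243 and 289 in the NP-D@M and 320.3, 306 and 311 in the NP-D@MP libraries. Every library with D was above every library without it by several fold. Its mean was 8.81-fold higher with NP-D@M than with NP@M, with a log2 change of 3.10 (standard error 0.10, limma adjusted p = 1.93e-10), and 1.28 rescaled to the table's reads. Kars, the lysine enzyme of both compartments, was at 30.4, 32.4 and 26.8 FPKM in the PBS libraries, 29.6, 30.8 and 30.2 in the NP@M, 224, 259.6 and 218 in the NP-D@M and 227, 238 and 243 in the NP-D@MP libraries. It rose 7.74-fold, with a log2 change of 2.91 (limma adjusted p = 1.87e-10) and 1.09 rescaled to the table's reads. The log2 changes in NP-D@MP against PBS were 3.04 for Hars and 2.94 for Kars. Hars and Hars2 lie next to each other and share 195 exon bases on opposite strands, 7.97% of Hars, and since no strand setting is given for the counting, reads there cannot be assigned.

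Vars and Mars, for valine and methionine, were the next highest. Vars was at 48.4, 53.5 and 42.6 FPKM in the PBS libraries, 42.6, 38.9 and 44.4 in the NP@M, 156, 147 and 181 in the NP-D@M and 206, 177 and 183 in the NP-D@MP libraries. Mars was at 38.3, 40.8 and 36.9 FPKM in the PBS libraries, 37.6, 31.9 and 33.2 in the NP@M, 121, 119.7 and 123 in the NP-D@M and 130.1, 119 and 124 in the NP-D@MP libraries. As deposited they rose by 1.92 and 1.80 on the log2 scale (limma adjusted p = 1.95e-08 and 3.27e-09), but rescaled to the table's reads they stood at 0.11 and -0.005. Farsa and Farsb, the 2 subunits of the phenylalanine enzyme, had log2 changes of 0.22 (limma adjusted p = 0.253, not called) and 0.65 (limma adjusted p = 3.01e-05). Farsa was at 9.27, 10.3 and 8.01 FPKM in the PBS libraries, 8.78, 6.72 and 6.51 in the NP@M, 8.5, 6.38 and 11.9 in the NP-D@M and 11.4, 10.9 and 11.2 in the NP-D@MP libraries. Farsb was at 31.2, 30.9 and 30.1 FPKM in the PBS libraries, 33.0, 31.1 and 34.6 in the NP@M, 54.6, 52.0 and 50.2 in the NP-D@M and 55.6, 60.4 and 49.7 in the NP-D@MP libraries. The Farsa libraries of NP@M and NP-D@M overlapped. Yars, for tyrosine, was at 8.54, 8.68 and 7.61 FPKM in the PBS libraries, 8.36, 7.07 and 7.86 in the NP@M, 9.02, 10.1 and 11.4 in the NP-D@M and 14.3, 12 and 10.1 in the NP-D@MP libraries, with a log2 change of 0.35 (limma adjusted p = 0.0235) that was not called without NP@M library 2 (0.29) or NP-D@M library 3 (0.27). Qars, for glutamine, was the other cytosolic gene not called, at 0.26 (limma adjusted p = 0.0775). Farsb shares 9.47% of its exon bases with Sgpp2.

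Among the mitochondrial genes Lars2, Cars2, Aars2 and Iars2 rose most. Lars2 (chr9:123366927-123462666), whose values by library are given above, had a log2 change of 3.63 in NP-D@M against NP@M (standard error 0.25, limma adjusted p = 5.55e-08) and of 2.92 in NP-D@MP against PBS. Cars2, for cysteine, was at 1.45, 1.77 and 1.47 FPKM in the PBS libraries, 1.16, 1.07 and 1.37 in the NP@M, 13.8, 13.7 and 14.7 in the NP-D@M and 14.6, 14.9 and 14.1 in the NP-D@MP libraries, a 11.7-fold rise (log2 change 2.78, limma adjusted p = 1.35e-10). Aars2, for alanine, was at 2.27, 2.34 and 2.62 FPKM in the PBS libraries, 1.69, 1.79 and 1.53 in the NP@M, 11, 8.74 and 12.6 in the NP-D@M and 14.2, 12.6 and 14.8 in the NP-D@MP libraries (log2 change 2.13, limma adjusted p = 1.24e-08). Iars2, for isoleucine, was at 7.40, 7.80 and 7.39 FPKM in the PBS libraries, 7.26, 7.27 and 7.64 in the NP@M, 29.5, 30.4 and 25.8 in the NP-D@M and 28.4, 28.2 and 29.1 in the NP-D@MP libraries (log2 change 1.81, limma adjusted p = 2.04e-09). None of the 4 overlapped between libraries with and without D. Such separation was common, at 87.3% of all genes in NP-D@M against NP@M and 93.0% in NP-D@MP against PBS. Rescaled to the table's reads they stood at 1.82, 1.17, 0.59 and 0.10, and Iars2 was then no longer called. Iars2 shares 22.9% of its exon bases with Rab3gap2 on the opposite strand, and Cars2 5.83% with Naxd.

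The lowest changes among the mitochondrial genes were those of Yars2, Rars2, Hars2 and Ears2. Yars2, for tyrosine, was at 3.14, 3.69 and 3.28 FPKM in the PBS libraries, 3.08, 3.79 and 3.80 in the NP@M, 0.189, 0.306 and 0.387 in the NP-D@M and 0.595, 0.0838 and 0.757 in the NP-D@MP libraries, from 5, 7 and 10 reads in the NP-D@M libraries. Rars2 was at 5.24, 4.52 and 5.06 FPKM in the PBS libraries, 4.19, 5.23 and 4.52 in the NP@M, 0.344, 1.54 and 1.36 in the NP-D@M and 1.64, 1.67 and 0.961 in the NP-D@MP libraries. Hars2 was at 3.97, 4.82 and 5.02 FPKM in the PBS libraries, 4.54, 4.13 and 5.63 in the NP@M, 1.78, 1.48 and 1.42 in the NP-D@M and 1.06, 1.97 and 0.885 in the NP-D@MP libraries. Ears2, for glutamate, was at 0.917, 1.38 and 0.944 FPKM in the PBS libraries, 1.30, 1.02 and 1.14 in the NP@M, 0.208, 0 and 0.0236 in the NP-D@M and 0.571, 0.282 and 0.299 in the NP-D@MP libraries, with 9, 0 and 1 reads with NP-D@M. For Rars2 and Hars2, every library with D was below every one without. Groups did not overlap for 87.3% of all genes in NP-D@M against NP@M and 93.0% in NP-D@MP against PBS. Yars2 and Ears2 showed the same order, but they passed the filter only through libraries without D, so for them it is no support. The log2 changes of Rars2 and Hars2 were -1.49 and -1.17 (limma adjusted p = 3.96e-05 and 3.68e-05). Those of Yars2 and Ears2, -1.82 and -1.0, are given without a test because of the filter, and the pseudocount of 1 FPKM understates changes this low. Wars2, for tryptophan, was at -0.81. Other tested mitochondrial genes were Tars2, higher as deposited at 0.77, Mars2 at 0.32, which passed the filter only through libraries with D and whose call was lost without NP@M library 1 or 2 or NP-D@M library 2 or 3 (0.24 to 0.30), and Sars2 and Vars2, not called at 0.31 and 0.31.

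**Figure D3:**
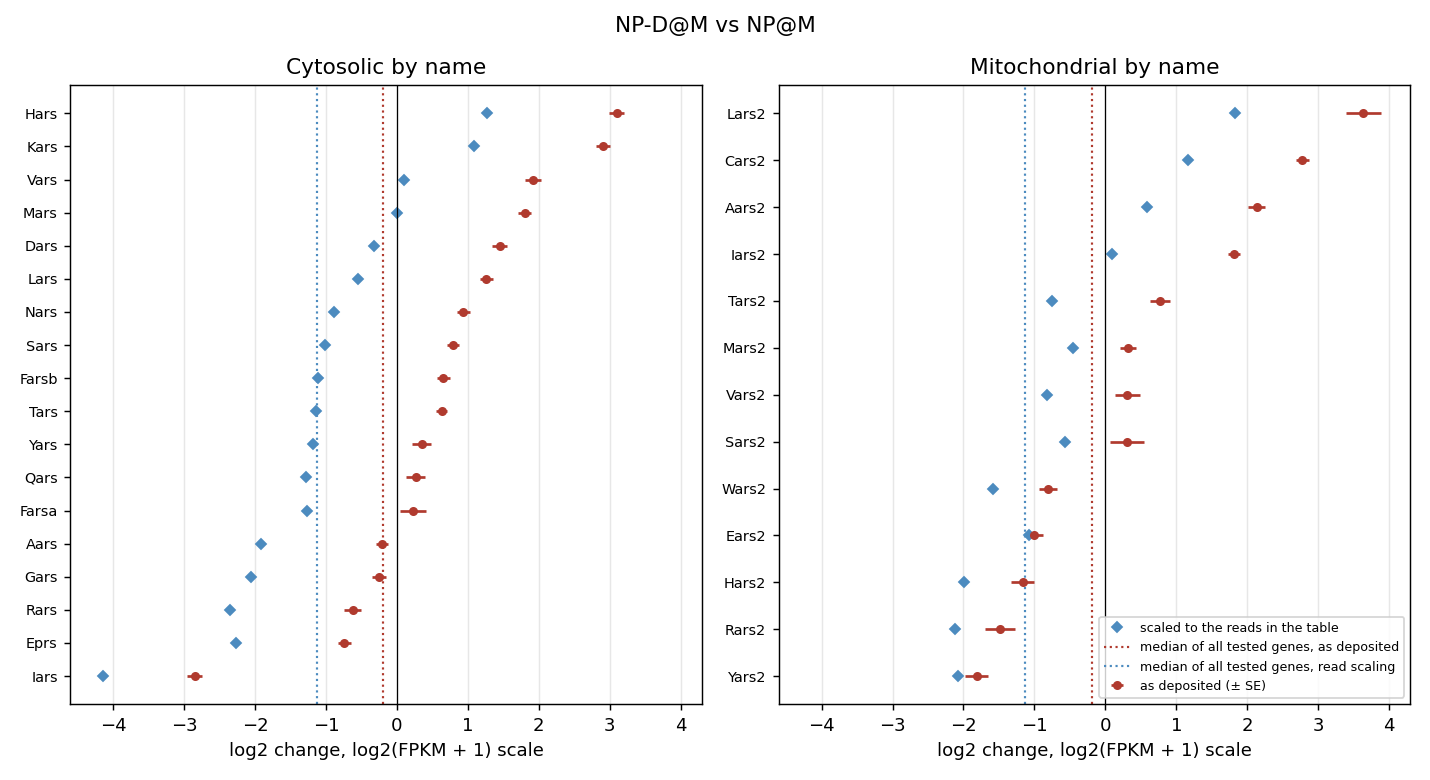
Log2 change of 31 tested synthetases in NP-D@M against NP@M, as deposited and rescaled to the table's reads, with the median of all tested genes. Hars, Kars, Lars2, Cars2, Aars2 and Iars2 stay above 0 in both, and Iars is the lowest in both.

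As a class, cytosolic genes were called higher in 11 and lower in 5 of 18 in both comparisons, against 41.8% higher and 47.7% lower of all genes in NP-D@M against NP@M and 43.2% and 47.3% in NP-D@MP against PBS. Mitochondrial genes were called higher in 6 and lower in 6 of 14 in NP-D@M against NP@M, and in 7 and 6 in NP-D@MP against PBS. Without Ears2, Mars2 and Yars2, which passed the filter through 1 side only, these were 5 higher and 4 lower of 11, and 7 and 4, a count added after seeing the data. The median log2 change in NP-D@M against NP@M was 0.64 for cytosolic genes, 0.31 for mitochondrial genes and -0.19 for all tested genes. The same medians in NP-D@MP against PBS were 0.60, 0.34 and -0.16. Rescaled to the table's reads, they were -1.12, -0.78 and -1.13 in the first comparison, so that the order of the 2 classes turned round, and cytosolic counts became 2 higher and 14 lower, mitochondrial ones 3 higher and 10 lower, where 17.6% of all genes were higher and 70.7% lower. Without the 3 genes named, the rescaled mitochondrial counts were 3 higher and 7 lower of 11. Which class stood higher on this log2 scale therefore depended on the scaling together with the pseudocount of 1 FPKM. Without a pseudocount, a factor per library shifts both classes alike. By limma voom on the recovered reads, the cytosolic median stayed above the mitochondrial one in both comparisons.

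The 8 enzymes of the multisynthetase complex did not move together. Of these Dars, Kars, Lars and Mars were called higher and Eprs, Iars and Rars lower, with Qars not called, and their log2 changes in NP-D@M against NP@M ranged from -2.85 to 2.91. The 2 ends of that range were Iars and Kars. The within-library ratio of Kars to Iars, which does not depend on the library size, was 0.753, 0.851 and 0.623 in the PBS libraries, 0.760, 0.765 and 0.787 in the NP@M, 55.1, 51.7 and 46.3 in the NP-D@M and 54.9, 45.2 and 47.3 in the NP-D@MP libraries. This pair was chosen after its values were seen. Cytosolic enzymes outside the complex had a median of 0.64 and those in it 0.76, but -1.12 and -0.92 rescaled to the table's reads, where all genes had -1.13. By catalytic fold, the medians were 0.31 for 16 class I and 0.65 for 15 tested class II enzymes, with Eprs, which holds 1 of each, left out. Rescaled to the table's reads they were -0.95 and -1.01, so that both the sign and the order turned on this scale with its pseudocount. By limma voom on the recovered reads both were below 0 as well, but class I stayed the lower of the 2.

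**Figure D4:**
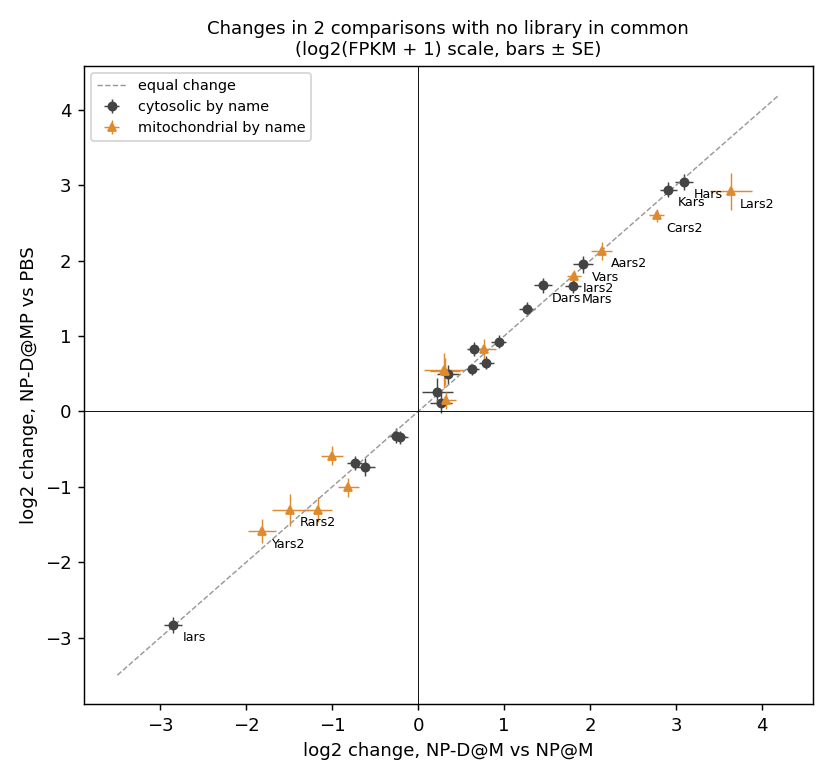
Log2 change of 31 tested synthetases in NP-D@M against NP@M (x axis) and in NP-D@MP against PBS (y axis), 2 comparisons that share no library. Iars is the lowest and Hars, Kars and Lars2 are the highest in both.

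Ratios of a cytosolic gene to its mitochondrial counterpart within 1 library do not depend on the library size either. Iars over Iars2 was 5.46, 4.88 and 5.82 in the PBS libraries, 5.37, 5.55 and 5.02 in the NP@M, 0.138, 0.165 and 0.183 in the NP-D@M and 0.146, 0.186 and 0.176 in the NP-D@MP libraries, so that the order of the 2 genes was opposite in libraries with and without D. Aars over Aars2 was 16.5, 17.1 and 14.2 in the PBS libraries, 19.7, 17.9 and 20.2 in the NP@M, 2.69, 2.84 and 2.27 in the NP-D@M and 2.21, 2.26 and 1.98 in the NP-D@MP libraries. Both ratios fell without overlap. Hars over Hars2 was 10.5, 7.78 and 6.48 in the PBS libraries, 7.04, 7.11 and 5.18 in the NP@M, 149, 164 and 203 in the NP-D@M and 301, 155 and 352 in the NP-D@MP libraries. Yars over Yars2 was 2.72, 2.35 and 2.32 in the PBS libraries, 2.71, 1.86 and 2.07 in the NP@M, 47.7, 32.9 and 29.6 in the NP-D@M and 24.1, 143 and 13.3 in the NP-D@MP libraries, the last from 14, 2 and 17 Yars2 reads. Both rose without overlap. Of the other pairs, Lars over Lars2 fell, and the Mars, Nars, Rars and Vars ratios rose in both comparisons without overlap. Separation was common: single genes did not overlap for 87.3% and 93.0% of all genes in the same comparisons. A share over other gene pairs is not given here. The Rars ratios with NP-D@M were 89.8, 22.7 and 19.4, from 8, 31 and 31 Rars2 reads. Sars over Sars2 overlapped in both, and Tars over Tars2 overlapped in NP-D@M against NP@M. Farsa over Farsb was 0.188 to 0.333 without D and 0.123 to 0.236 with D.

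**Figure D5:**
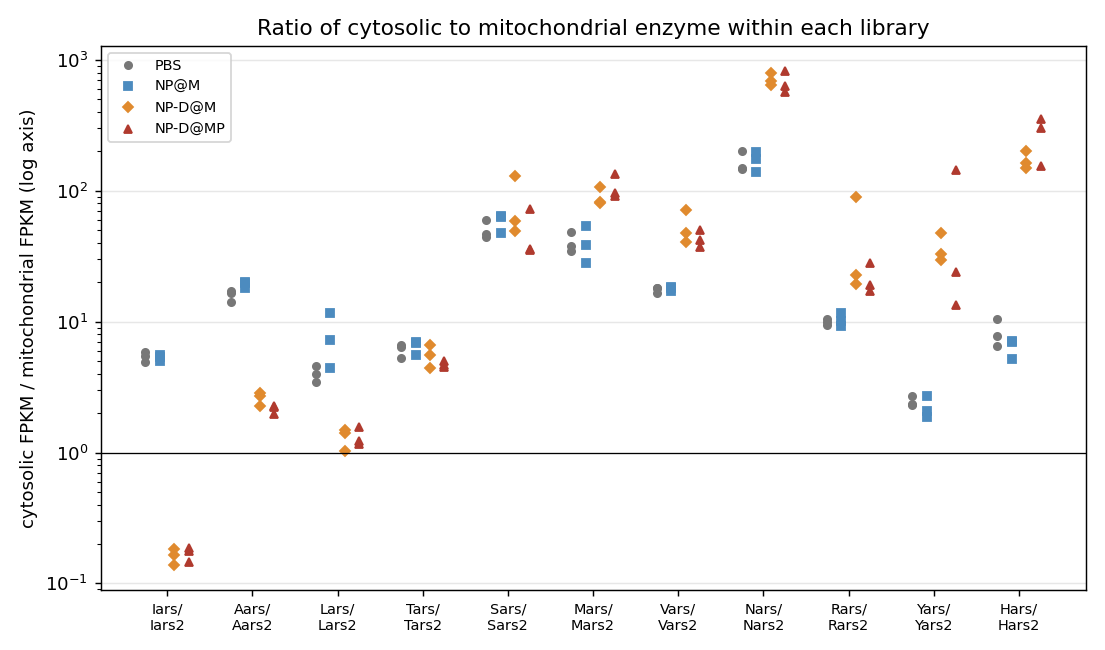
Ratio of cytosolic to mitochondrial FPKM of 11 synthetase pairs in each of the 12 libraries, log axis. Iars/Iars2 crosses 1 between libraries without and with D, and Hars/Hars2 and Yars/Yars2 rise.

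The motif-bearing promoters shown above belong to genes with a median log2 change of -0.21 in NP-D@M against NP@M, from -2.85 (Iars) to 0.63 (Tars). The 7 cytosolic genes with a matched promoter without it had a median of 0.65, from -0.74 (Eprs) to 2.91 (Kars). The 2 ranges overlap. Hars, Lars, Mars, Nars, Rars and Vars had no matched promoter and are in neither set. Their changes ran from -0.62 (Rars) to 3.10 (Hars), so either median could differ with them. The medians in NP-D@MP against PBS were -0.32 and 0.65. Rescaled to the table's reads, both medians were below 0, at -1.92 with the motif and -1.11 without it in NP-D@M against NP@M, and -2.11 and -1.21 in NP-D@MP against PBS. Of the 5 with the motif, Iars, Aars and Gars were lower in every scaling and Tars and Yars changed direction with it.

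Genes that act with the synthetases were counted from lists by role. Their counts are to be read against 41.8% higher and 47.7% lower of all genes in NP-D@M against NP@M, or 17.6% and 70.7% rescaled to the table's reads. None of them was called in NP@M against PBS. ATF4 and genes of the amino acid response numbered 12 higher and 15 lower of 29 tested in NP-D@M against NP@M, and 5 higher and 19 lower rescaled to the table's reads, shares near those of all genes. Atf4 was at 214 ± 15.3 FPKM in the PBS group, 194 ± 10.9 in the NP@M, 25 ± 3.17 in the NP-D@M and 27.0 ± 3.12 in the NP-D@MP group (SD, n = 3), a log2 change of -2.91 (limma adjusted p = 7.32e-10). Trib3, an ATF4 target that feeds back on it, was at 69.0 ± 8.98 FPKM in the PBS group, 53.3 ± 5.91 in the NP@M, 1.70 ± 0.483 in the NP-D@M and 0.718 ± 0.185 in the NP-D@MP group, a log2 change of -4.34. Both were lower in every scaling. Mthfd2, of mitochondrial folate metabolism, was higher (2.73) and Slc38a2, an amino acid transporter, lower (-3.40). Kinases of eIF2 alpha with their partners and phosphatase subunits were 2 higher and 5 lower of 7, or 0 higher and 6 lower rescaled to the table's reads, with Gcn1l1, the activator of GCN2, at 1.70 (0.02 scaled to the reads) and Eif2ak3, the kinase PERK, at -1.58.

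Delivery of charged transfer RNA to the ribosome had 5 of 6 tested genes higher and 0 lower, against 41.8% of all genes higher, but 3 higher and 2 lower rescaled to the table's reads. Eef1a1, the elongation factor that carries it, was at 2593 ± 79.5 FPKM in the PBS group, 2797 ± 5.32 in the NP@M, 13732 ± 1017 in the NP-D@M and 13870.0 ± 242 in the NP-D@MP group (SD, n = 3; log2 change 2.29, but -0.99 after quantile normalization). Transfer RNA processing and export had 5 higher and 14 lower of 20, against 47.7% of all genes lower, and 2 higher and 17 lower rescaled to the table's reads. Xpot, the export receptor, was at 35.3 ± 0.880 FPKM in the PBS group, 35.6 ± 1.82 in the NP@M, 10.2 ± 0.739 in the NP-D@M and 11.2 ± 0.263 in the NP-D@MP group. Hsd17b10, a subunit of mitochondrial RNase P, was at 31.5 ± 4.93 FPKM in the PBS group, 24.4 ± 1.96 in the NP@M, 219 ± 37.8 in the NP-D@M and 251 ± 2.88 in the NP-D@MP group. Both kept their direction in every scaling. The scaffold proteins of the multisynthetase complex were 0 higher and 2 lower of 3 (0 and 3 rescaled to the table's reads), with Eef1e1 at -1.45. A list of 4 genes joined the mitochondrial glutaminyl-tRNA amidotransferase with the separate step of transfer RNA formylation. Of these Gatb, an amidotransferase subunit, was higher, and the other 3 lower, among them Mtfmt, the formylation gene, at -1.23. Gatb was at 2.85 ± 0.153 FPKM in the PBS group, 2.87 ± 0.370 in the NP@M, 21.1 ± 2.46 in the NP-D@M and 21.4 ± 2.35 in the NP-D@MP group. Selenocysteine enzymes were 2 higher and 1 lower of 4 (0 and 4 rescaled to the table's reads), with Eefsec at 0.70 and Sepsecs at -0.70. Editing and peptidyl-tRNA hydrolysis had 2 higher and 1 lower of 5 (0 and 4 rescaled to the table's reads), with Dtd1 at 1.70 and Ptrh2 at -2.36.

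NP-D@MP against NP-D@M compares formulations that differ by P in the name, and shares its NP-D libraries with the comparisons above. Limma called 0 of 32 synthetases, against 0.0495% of all genes. At an unadjusted p under 0.05 it was 3 of 32, against 17% of all genes, and limma voom called 0 (0.0% of all genes). Log2 differences ranged from -0.23 to 0.42, with standard errors up to 0.25. Groups did not overlap for 3 of 32, Hars, Tars and Ears2, against 14.2% of all genes. The count rests on NP-D@M library 3: without it 12.5% of all genes were called, and Aars2, Farsa and Vars2 were called higher at 0.46, 0.54 and 0.58 (limma adjusted p = 0.0300, 0.0446 and 0.0346).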

How the data were processed

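Total RNA of CT26 cells was sequenced in 12 libraries, 3 per treatment, grouped by the sample titles. The authors deposited 1 table of FPKM values for 12584 genes with gene lengths, and Bowtie 0.12.2 and mm8 are named per the submitters' processing notes, while the table's coordinates are those of GRCm38 (12075 of the genes have identical coordinates in GENCODE M21). The counter, the strand setting and the library size are not given in the sources used here. FPKM times gene length was a whole multiple of 1 step per library for 100% of values within a relative tolerance of 1e-06, which gave whole reads.

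The main test was limma 3.58.1 (R 4.3.3) on log2(FPKM + 1), with all 12 libraries in 1 fit and only genes at 1 FPKM or above in 3 or more libraries, leaving 10101 genes. Calls required an adjusted p (Benjamini-Hochberg, over all genes tested) under 0.05. The code was tested on simulated data. This log2 scale makes changes of low genes look smaller, and folds are ratios of mean FPKM. Alternatives were the other scalings, filters and pseudocounts, leaving out each library, and limma voom. The synthetases, the lists and the alternatives were chosen with earlier results of these data known. The text gives values by library for the 4 highest and 4 lowest changes of each class in NP-D@M against NP@M, for the extreme pairs and for Farsa, Farsb, Gars and Kars, and names from each list the called gene with the smallest p in each direction, with Atf4 and Trib3. Of the synthetases, 1 is counted but its values are not reported here.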

Additional observations from a re-analysis of the deposited data

How the results depend on the processing

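The design and its alternatives were chosen with earlier results of these data known. The planned edgeR test was not run, because the deposited values are FPKM. Limma voom on the recovered reads took its place and was chosen after seeing the data. No paired analysis was possible because the labels number the libraries in a single series, with no number shared between groups. For NP-D@M against NP@M, cytosolic genes higher numbered 11 as reported, but 2 rescaled to the table's reads, 2 after quantile normalization, 2 by limma voom on the recovered reads and 6 at an absolute log2 change of at least 1. In the same comparison, cytosolic genes lower numbered 5 as reported, but 14 rescaled to the table's reads, 10 after quantile normalization, 3 in a fit of only the 6 libraries compared, 14 by limma voom on the recovered reads and 1 at an absolute log2 change of at least 1. In the same comparison, mitochondrial genes higher numbered 6 as reported, but 3 rescaled to the table's reads and 3 by limma voom on the recovered reads. In the same comparison, mitochondrial genes lower numbered 6 as reported, but 10 rescaled to the table's reads, 0 at a mean of at least 5 FPKM and 10 by limma voom on the recovered reads. At an absolute log2 change of at least 1, 15 of the 28 called synthetases remained above that size. The cytosolic minus mitochondrial median log2 change, 0.33, was -0.34 rescaled to the table's reads, -1.80 after quantile normalization, -1.49 at a mean of at least 5 FPKM and 0.69 with no filter. For NP-D@MP against PBS, cytosolic genes higher numbered 11 as reported, but 2 rescaled to the table's reads, 3 after quantile normalization, 2 by limma voom on the recovered reads and 6 at an absolute log2 change of at least 1. In the same comparison, cytosolic genes lower numbered 5 as reported, but 14 rescaled to the table's reads, 11 after quantile normalization, 14 by limma voom on the recovered reads and 1 at an absolute log2 change of at least 1. In the same comparison, mitochondrial genes higher numbered 7 as reported, but 3 rescaled to the table's reads, 3 by limma voom on the recovered reads and 4 at an absolute log2 change of at least 1. In the same comparison, mitochondrial genes lower numbered 6 as reported, but 10 rescaled to the table's reads, 0 at a mean of at least 5 FPKM and 10 by limma voom on the recovered reads. At an absolute log2 change of at least 1, 15 of the 29 called synthetases remained above that size. The cytosolic minus mitochondrial median log2 change, 0.26, was -0.40 rescaled to the table's reads, -1.69 after quantile normalization, -1.52 at a mean of at least 5 FPKM and 0.73 with no filter. In NP@M against PBS it was 0.03 and 0.18 at a mean of at least 5 FPKM. Of the mitochondrial genes, that filter kept only Aars2, Cars2, Iars2, Lars2 and Tars2, all higher with D as deposited. Aars2 and Cars2 passed it only through the libraries with D. Its count of 0 lower mitochondrial genes and its class differences with D were thus set by the filter and are no support. Leaving out 1 library at a time, cytosolic genes lower in NP-D@M against NP@M numbered 3 to 4, with 3 after leaving out any 1 of the NP@M libraries. In NP-D@MP against NP-D@M the called synthetases numbered 0 to 3, and the class difference ranged from -0.17 to -0.017 (lowest without NP-D@MP library 2, -0.17, and NP-D@M library 3, -0.17). Leaving out 1 library reversed no called synthetase in the comparisons with D. In NP-D@MP against PBS the calls it ended included those for Vars2 (without PBS library 3, 0.45) and Sars2 (without any PBS library or NP-D@MP library 1 or 3, 0.41 to 0.59). The cause of the changes across scalings was not tested.

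In the lists that follow, turned round means a change of sign, whether or not the new value was called. Rescaled to the table's reads, the log2 changes in NP-D@M against NP@M that turned round were Dars -0.32, Farsb -1.11, Lars -0.55, Mars -0.0050, Mars2 -0.46, Nars -0.88, Sars -1.01, Tars -1.14, Tars2 -0.75 and Yars -1.19. Rescaled to the table's reads, the log2 changes in NP-D@MP against PBS that turned round were Dars -0.15, Farsb -1.0, Lars -0.52, Mars -0.20, Nars -0.96, Sars -1.21, Sars2 -0.53, Tars -1.25, Tars2 -0.76, Vars2 -0.77 and Yars -1.12. By limma voom, the log2 changes in NP-D@M against NP@M that turned round were Dars -0.34, Farsb -1.17, Lars -0.56, Mars -0.0051, Mars2 -1.22, Nars -0.89, Sars -1.03, Tars -1.19, Tars2 -0.96 and Yars -1.45. By limma voom, the log2 changes in NP-D@MP against PBS that turned round were Dars -0.16, Farsb -1.05, Lars -0.52, Mars -0.21, Nars -0.96, Sars -1.24, Sars2 -1.09, Tars -1.32, Tars2 -0.96, Vars2 -1.21 and Yars -1.35. After quantile normalization, the log2 changes in NP-D@M against NP@M that turned round were Farsb -0.98, Lars -1.08, Mars -0.082, Nars -1.67, Sars -1.36, Tars -1.0 and Vars -0.14. After quantile normalization, the log2 changes in NP-D@MP against PBS that turned round were Farsb -0.85, Lars -1.03, Mars -0.39, Nars -1.66, Sars -1.59, Tars -1.10 and Vars -0.24. At a common median ratio no called synthetase turned round in either comparison, and only Sars2, in NP-D@MP against PBS, lost its call.

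Depth limits the low mitochondrial genes: Yars2, Ears2 and Pars2 rest on 22 reads or fewer in each library with D, so their size of change is uncertain while their reads without D were 32 or more. Other low genes share this limit. Rars2 had 8, 31 and 31 reads in the NP-D@M libraries and 34, 35 and 19 in the NP-D@MP. Nars2 had 25, 20 and 18, then 24, 17 and 20, and Sars2 had 22 in NP-D@M library 2. A level between libraries with and without D depends on the library size divided by, whose origin no source used here states. Ratios within a library do not. Exon bases shared with other genes can hold reads of either gene, since the counting rule is not given.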

Other observations

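Changes were also set against the length of the genes, as a description over genes, which share libraries and are not independent. In NP-D@M against NP@M, Spearman's rho between log2 change and gene length was -0.32 over the 10101 tested genes, -0.40 over the 18 cytosolic synthetases and 0.74 over the 14 tested mitochondrial ones. For NP-D@MP against PBS it was -0.32, -0.43 and 0.63. Among the mitochondrial genes the longest included Lars2, Iars2 and Cars2, which rose, and the shortest Rars2 and Yars2, which fell, while Mars2, the longest, was at 0.32. Sars2, the next shortest, was at 0.31 and not called. Ears2, Mars2 and Yars2 are in this rho although they passed the filter through 1 side only. The cytosolic genes went the other way, with Hars the shortest.

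The synthetases spread about as widely as other genes. The SD of their log2 changes in NP-D@M against NP@M was 1.5 over 32 genes, against 1.65 over all tested genes.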
